A study of Homo sapiens with 14 samples.

Results

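Chromosome segregation was followed through 43 genes of the mitotic spindle and the kinetochore in cells of MEL1, a human embryonic stem cell line that carries a GFP reporter at the INS locus. The genes were taken from a fixed list of names, chosen with earlier results of these data known. All 43 were found among the 60624 gene identifiers of every library, none of them listed at 0. There were 14 RNA sequencing libraries in 9 groups. Undifferentiated cells (hPSC), definitive endoderm (DE), pancreatic progenitors made by stepwise differentiation (PP2) and β-like cells derived from hPSC (SC-β) had 1 library each and were labelled batch 1. Expandable pancreatic progenitors (ePPs) at passage 9 (ePP-P9) and at passage 21 (ePP-P21), and β-like cells made from ePPs (ePP-β), had 2 libraries each and were labelled batch 2. Progenitors derived from stem cells and held for 7 days in DMSO, the solvent, or in 1 μM I-BET151 had 2 libraries each and were labelled batch 3. I-BET151 blocks the bromodomains of the BET family of chromatin readers. It was also part of the medium in which the ePPs were grown, on feeder cells and with EGF, bFGF and a TGFβ inhibitor, whereas the media listed for making β-like cells did not contain it. A difference between ePP-β and ePP libraries therefore covers cell type, medium, feeder layer and inhibitor together. All groups came from 1 cell line, and nothing states that replicates were separate cultures, so the p-values measure the spread between these libraries, which may be technical.

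Cells entering mitosis switch on cyclin B and CDK1, build a bipolar spindle with the help of kinesins and of the Aurora and Polo-like kinases, and attach each chromosome to it through the kinetochore. The spindle checkpoint holds the anaphase-promoting complex in check until every chromosome is attached, after which CDC20 lets the complex destroy securin and the cyclins. Most of these transcripts accumulate in G2 and M phase, under the DREAM complex, MYBL2 and FOXM1, so in bulk RNA they are widely read as a mark of cycling cells. β cells divide rarely, whereas pluripotent cells and pancreatic progenitors divide often.

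In promoters of such genes the CCAAT box, the site of the factor NF-Y, commonly lies a short way upstream of a cell cycle homology region, the element through which DREAM and MYBL2 act. RefSeq promoters (GRCh38.p14) were held for 37 of the 43 genes. The missing ones were AURKA, BUB3, TTK, BIRC5, UBE2C and TPX2. In the 250 bases before the start, on either strand, CCAAT was found in 29 of the 37, or 78.4%, against 33.0% of all 27305 promoters in the table. The homology region letters TTTGAA were found in 19 of the 37 (51.4%), against 13.6% of all promoters, and TTTAAA in 12 of the 37 (32.4%), against 11.4%. CCAAT and TTTGAA occurred together in 17 of the 37 (45.9%), against 4.85% of all. The letters TTCGAA were in none of the 37 and in 1.20% of all promoters. In 2 promoters a match of one motif overlapped a match of another. These are matches of letters, with no test, and the expression files hold no measurement of binding.

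The 170 bases before the start are shown for the mitotic cyclins and CDK1, whose messages carry the entry into mitosis, for PLK1 and CDC20, which had the lowest difference in one or other β-like preparation, and for CENPT, the exception in several comparisons. They lie at chr5:69166980-69167149 (CCNB1), chr15:59104976-59105145 (CCNB2), chr10:60778161-60778330 (CDK1), chr16:23678719-23678888 (PLK1), chr1:43358811-43358980 (CDC20), all on the plus strand, and chr16:67847694-67847863 (CENPT), on the minus strand. They are written 5′ to 3′, and capitals mark the CCAAT box and the homology region letters TTTGAA or TTTAAA.
CCNB1: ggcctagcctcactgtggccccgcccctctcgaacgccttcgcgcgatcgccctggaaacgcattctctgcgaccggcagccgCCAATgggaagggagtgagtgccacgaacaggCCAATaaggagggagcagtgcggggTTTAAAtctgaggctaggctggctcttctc
CCNB2: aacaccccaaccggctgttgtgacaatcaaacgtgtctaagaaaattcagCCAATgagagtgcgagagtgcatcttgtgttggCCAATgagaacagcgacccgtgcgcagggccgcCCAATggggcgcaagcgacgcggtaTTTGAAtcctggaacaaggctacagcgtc
CDK1: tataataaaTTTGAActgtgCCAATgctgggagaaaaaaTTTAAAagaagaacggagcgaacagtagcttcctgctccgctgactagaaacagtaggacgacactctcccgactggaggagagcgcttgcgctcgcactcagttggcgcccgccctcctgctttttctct
PLK1: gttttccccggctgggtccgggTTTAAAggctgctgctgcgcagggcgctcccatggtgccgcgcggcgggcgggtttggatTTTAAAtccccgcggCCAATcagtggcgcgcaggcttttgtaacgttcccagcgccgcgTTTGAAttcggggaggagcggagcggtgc
CDC20: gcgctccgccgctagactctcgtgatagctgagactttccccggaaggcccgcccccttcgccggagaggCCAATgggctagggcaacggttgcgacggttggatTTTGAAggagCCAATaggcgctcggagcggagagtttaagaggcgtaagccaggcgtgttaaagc
CENPT: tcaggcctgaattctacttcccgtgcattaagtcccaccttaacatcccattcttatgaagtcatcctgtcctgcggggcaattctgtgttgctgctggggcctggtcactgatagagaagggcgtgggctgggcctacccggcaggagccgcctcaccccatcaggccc
Cyclin B2 carried 3 CCAAT boxes in this stretch, the last of them ending at base -50 and followed by TTTGAA at -29. Cyclin B1 had 2 CCAAT boxes, ending at -83 and -51, followed by TTTAAA at -30. CENPT held none of the 4 motifs in its 250 bases, as did CDC25C, KIF2C, NDC80 and NUF2, and 52.1% of all promoters were likewise without one. Some transcripts annotated for CENPT, CCNB1, CCNB2 and PLK1 begin inside or upstream of these windows, so another choice of start would shift them.

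Levels are given in TPM, a relative abundance that takes transcript length into account. The 43 genes summed to 3336 TPM in the hPSC library and to 420 TPM in the SC-β library, the highest and lowest of the 14. The level of the median gene was 42.8 TPM in hPSC, 29.5 in DE, 40.7 in PP2 and 6.73 in SC-β. It was between 31.6 and 35.5 TPM in the 4 ePP libraries, 10.6 and 10.7 TPM in ePP-β, 26.9 and 22.4 TPM in DMSO, and 30.6 and 24.4 TPM in I-BET151. Of the 43 genes, 33 had their lowest value of all 14 libraries in SC-β and 20 their highest in hPSC. Batch and cell stage differ together across this ranking, and no share over all genes is given for it. Among the 4 libraries of batch 1, 42 genes were lowest in SC-β and 25 highest in hPSC.

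**Figure D1:**
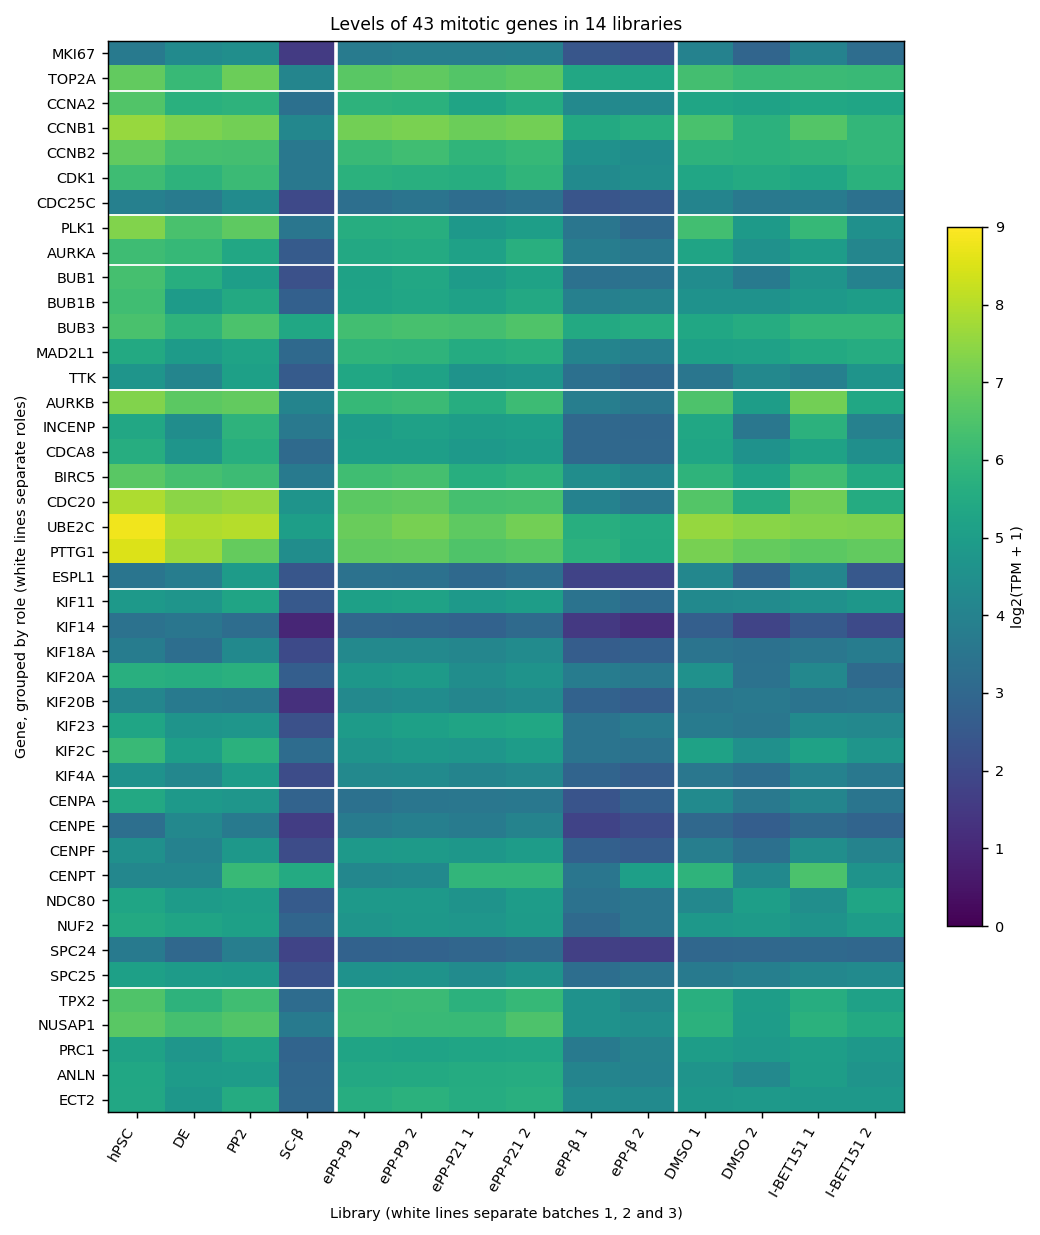
Levels of the 43 genes (rows, grouped by role) in the 14 libraries (columns, grouped by batch), coloured by log2(TPM + 1). The columns of SC-β and of both ePP-β libraries are darker than the others in nearly every row, and CENPT is the row that breaks this pattern most clearly.

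The labels fit the markers with some gaps. POU5F1 was at 3401 TPM in hPSC and SOX17 at 1140 TPM in DE. PDX1 had 251 TPM in PP2 and from 124 to 134 TPM in the ePP libraries. NKX6-1 had only 23.5 TPM in PP2, against 176 to 213 TPM in the ePP libraries and 181 TPM in SC-β. PTF1A, a progenitor gene, had 21.05 TPM in PP2 and 0.12 TPM or less in each ePP library. Its highest value of all libraries, 61.0 TPM, was in SC-β. INS had 20658 TPM in SC-β, with 10916 and 17374 TPM in ePP-β, while GCG, the glucagon gene of α cells, had 74281 TPM in SC-β, with 14107 and 13360 TPM in ePP-β, so the β-like preparations also held glucagon message.

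Along the direct route, from hPSC through DE and PP2 to SC-β, the median mitotic gene stood between 29.5 and 42.8 TPM up to the progenitor stage and at 6.73 TPM in the SC-β library. With 1 library a stage there was no replicate check, and the differences below, on the log2(TPM + 1) scale, carry no test. From hPSC to DE the median difference was -0.49, with 39 of the 43 negative, against a median of -0.03 over 17571 genes. The 2 genes below -1 were BUB1B, of the spindle checkpoint, at -1.29, and KIF2C, a microtubule-destabilising kinesin, at -1.07. Over all genes 13.5% lay below -1. None of the 43 lay above 1, against 8.87% of all genes. From DE to PP2 the median was 0.23 with 31 positive, under the all-gene median of 0.37, and it turned to -0.27 with median-centred values. The 4 genes above 1 were CENPT at 1.89, INCENP at 1.43, the separase gene ESPL1 at 1.12 and KIF18A at 1.00, where 26.5% of all genes lay above 1. None lay below -1, against 8.36%. From PP2 to SC-β all 43 differences were negative with a median of -2.52, and 42 lay below -1, against 22.1% of all genes (9.45% lay above 1) and an all-gene median of -0.38.

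Single genes showed the same order in part. MKI67, the proliferation antigen that coats mitotic chromosomes, was at 12.0 TPM in hPSC, 19.0 in DE, 20.7 in PP2 and 1.99 in SC-β. CCNB1, the cyclin B1 gene, was at 194, 148, 135 and 16.8 TPM in the same order. PLK1, the Polo-like kinase of spindle formation, was at 157, 84.6, 108 and 10.5 TPM. The hPSC library was the highest of the 4 for CCNB1 and PLK1 but the lowest of the first 3 for MKI67. PLK1 showed the lowest difference of the last step, -3.24, a ratio of 10.3 between PP2 and SC-β. CDC20, the activator of the anaphase-promoting complex, was at 237, 174, 192 and 24.2 TPM. CDK1 was at 71.9, 55.8, 69.7 and 11.3 TPM. BUB3, a checkpoint protein with a WD40 fold, was at 84.3, 56.9, 86.1 and 40.2 TPM, a much shallower final step of -1.08. CENPT, which anchors the outer kinetochore to centromeric chromatin, ran differently, at 17.1, 16.8, 65.2 and 44 TPM, and its final difference of -0.56 was the highest of the 43.

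Markers of other cells moved along this route as well. The summed fibroblast and mesenchyme list (6 genes) stood at 1472 TPM in PP2 and 2580 TPM in SC-β. Its collagens and PDGFRB were higher in SC-β, whereas LUM went from 171 to 93.4 TPM and THY1 from 24.2 to 17.6 TPM. The duct and epithelium list went from 1244 to 340 TPM and the endothelial list from 48.7 to 2.27 TPM. In the duct and epithelium list KRT19, SPP1 and CFTR were lower in SC-β, whereas KRT7 went from 0.70 to 6.71 TPM. The 4-gene list of other endocrine cells went from 2.39 to 77090 TPM, and the hormone and endocrine markers together took 12.1% of the TPM in SC-β. The part of these cells in the stage differences was not tested.

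In ePP-β nearly all mitotic genes were lower than in the ePPs. This comparison asks how β-like cells differ from the progenitors they were made from. Of the 43 genes, 38 were called lower and none higher, where a call needs an adjusted p under 0.05 and a log2 difference beyond 1. Among all 18076 genes tested, 9.86% were called lower and 17.9% higher. An adjusted p under 0.05 with a lower level was reached by 42 of the 43, against 28.2% of all genes. The median difference of the 43 was -1.49, against -0.03 over all genes. Both ePP-β libraries lay below all 4 ePP libraries for 42 of the 43 genes, where 31.6% of all genes did so. The 43 were chosen with earlier results of these data known, so these counts describe the change and give it no independent support. In bulk RNA, fewer cells in mitosis and less mitotic RNA per cell cannot be told apart.

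**Figure D2:**
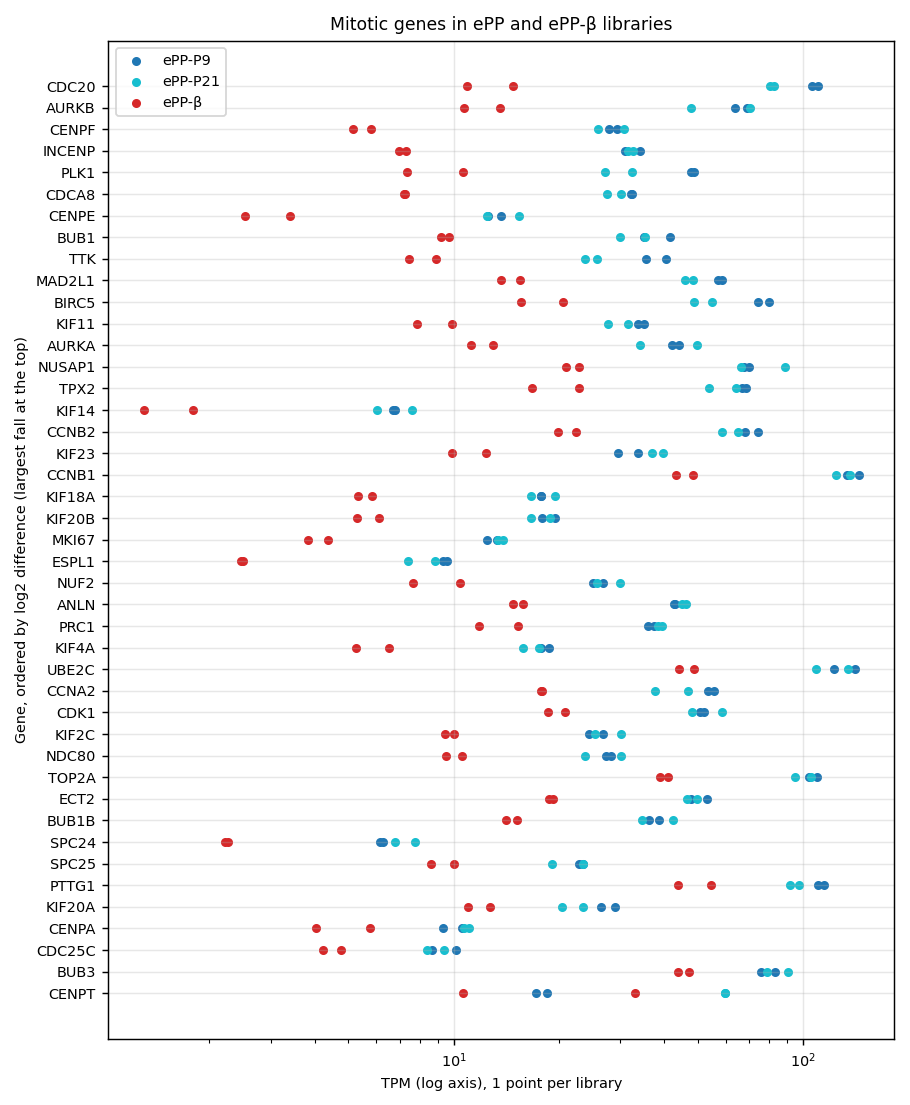
TPM (horizontal, log axis) of the 43 genes in each ePP-P9, ePP-P21 and ePP-β library, 1 point per library, ordered by log2 difference. The 2 ePP-β points stand to the left of all 4 ePP points in every row but the last, CENPT.

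The lowest difference of the 43 was that of CDC20, the gene that opens anaphase. It was at 106 and 110 TPM at passage 9, 80.3 and 82.7 TPM at passage 21, and 14.8 and 10.9 TPM in ePP-β. Its log2 difference was -2.79 ± 0.12 (SE, adjusted p = 2.22e-05), a ratio of 7.38 between the means. UBE2C, the conjugating enzyme of the complex, PTTG1, securin, and ESPL1, separase, were also called lower, at -1.42, -1.06 and -1.48. The 12 subunits and co-activators of the anaphase-promoting complex outside the 43 gave no call, with a median of -0.20. Their differences were negative in 11 of the 12, down to -0.74, and ANAPC5 stood at 0.66. An adjusted p under 0.05, in either direction, was reached by 5. Both ePP-β libraries lay below all ePP libraries for 6 and above them for 1, where 31.6% of all genes lay below.

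All 4 genes of the chromosomal passenger complex, which corrects faulty attachments at the centromere and then moves to the midzone, were called lower. Its kinase AURKB was at 63.9 and 69.0 TPM at passage 9, 47.9 and 70.3 TPM at passage 21, and 13.6 and 10.7 TPM in ePP-β (-2.27 ± 0.18 SE, adjusted p = 0.000149). BIRC5, survivin, was at 74.4 and 79.8, then 48.7 and 55.0, then 20.5 and 15.6 TPM (-1.76 ± 0.13 SE, adjusted p = 0.000117). The groups did not overlap for either gene. INCENP, the scaffold, and CDCA8, borealin, fell by 2.04 and 1.94 on the log2 scale.

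Of the mitotic entry genes, CCNA2, CCNB1, CCNB2 and CDK1 were called lower, and CDC25C, the phosphatase that activates CDK1, was at 8.66 and 10.1, then 8.36 and 9.39, then 4.24 and 4.76 TPM (-0.88 ± 0.15 SE, adjusted p = 0.00315), under the fold threshold in size. CCNB1 was at 134 and 144 TPM at passage 9, 124 and 136 TPM at passage 21, and 43.3 and 48.4 TPM in ePP-β (-1.53 ± 0.08 SE, adjusted p = 4.19e-05). CDK1 was at 52.1 and 50.7, then 48.0 and 58.4, then 18.6 and 20.8 TPM (-1.36 ± 0.11 SE, adjusted p = 0.000162). Each of these had its ePP-β libraries close together and well under the ePPs. PLK1 was at 47.7 and 48.6, then 27.2 and 32.4, then 10.6 and 7.37 TPM (-1.98 ± 0.16 SE, adjusted p = 0.000169). MKI67 was at 12.5 and 13.3, then 13.4 and 13.8, then 4.36 and 3.84 TPM (-1.49 ± 0.13 SE, adjusted p = 0.000214). PLK1 was lower in both ePP-P21 libraries than in both ePP-P9 libraries and MKI67 was not, and for both genes the ePP-β values were the lowest. TOP2A, the topoisomerase that untangles sister chromatids, was at 104 and 110, then 94.7 and 105, then 41.0 and 38.9 TPM (-1.35 ± 0.08 SE, adjusted p = 5.17e-05).

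The checkpoint genes gave 4 calls of 5, with BUB3 the exception. BUB1, a kinase that recruits the checkpoint to the kinetochore, was at 35.2 and 41.5 TPM at passage 9, 30.0 and 35.2 TPM at passage 21, and 9.20 and 9.69 TPM in ePP-β (-1.79 ± 0.12 SE, adjusted p = 8.21e-05). BUB3 was at 75.9 and 83.1, then 79.0 and 90.3, then 43.7 and 47.1 TPM (-0.84 ± 0.09 SE, adjusted p = 0.000518). Its groups did not overlap, but its difference was under the fold threshold. BUB1B, MAD2L1 and TTK lay between -1.31 and -1.79.

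At the centromere and kinetochore 6 of 8 genes were called lower. CENPF, a large protein of the outer kinetochore corona, was at 27.9 and 29.2 TPM at passage 9, 25.9 and 30.6 TPM at passage 21, and 5.81 and 5.15 TPM in ePP-β (-2.18 ± 0.12 SE, adjusted p = 4.25e-05). NDC80, of the complex that grips microtubules, was at 27.3 and 28.2, then 23.7 and 30.1, then 9.53 and 10.6 TPM (-1.36 ± 0.13 SE, adjusted p = 0.000315). NUF2, SPC24 and SPC25, the other subunits of that complex, fell by 1.48, 1.25 and 1.17. CENPA, the histone H3 variant that marks centromeres, was at 9.32 and 10.6, then 10.7 and 11.1, then 4.05 and 5.75 TPM (-0.97 ± 0.17 SE, adjusted p = 0.00376), past the p threshold but not the fold threshold. CENPT was the only one of the 43 whose groups overlapped, at 17.2 and 18.4, then 59.6 and 59.9, then 10.6 and 33.0 TPM (-0.77 ± 0.40 SE, adjusted p = 0.15). Its value rested on which libraries entered: without ePP-β replicate 1 the difference was 0.01, without ePP-β replicate 2 it was -1.54 and called, and against ePP-P9 alone it was 0.08.

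Among the kinesins 7 of 8 were called lower and KIF20A stood just inside the fold threshold at -0.995. KIF11, which slides spindle poles apart, was at 33.6 and 35.1 TPM at passage 9, 27.6 and 31.5 TPM at passage 21, and 9.87 and 7.87 TPM in ePP-β (-1.74 ± 0.12 SE, adjusted p = 0.00011). All 5 genes of spindle assembly and cytokinesis were called lower, between -1.33 for ECT2, the activator of the contractile ring, and -1.69 for NUSAP1. TPX2, the activator of Aurora A, was at 66.9 and 68.8, then 53.7 and 64.4, then 22.9 and 16.8 TPM (-1.64 ± 0.14 SE, adjusted p = 0.000239).

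Genes of the same processes outside the 43 moved in part. In the mitotic transcription list 4 of 14 were called lower. They were FOXM1 at -2.59, E2F7 at -1.86, E2F1 at -1.69 and MYBL2 at -1.28. The LIN subunits shared by DREAM and the MYBL2 complex ranged from -0.64 to -0.22 without a call, and RBL2, a pocket protein of DREAM in resting cells, stood at 0.61 (adjusted p = 0.0085), inside the fold threshold. Calls were made for 17 of 28 other kinetochore and centromere genes, led by SKA1 at -2.44, and for 8 of 11 other spindle genes, led by TACC3 at -1.998. For condensin, cohesin and shugoshin the count was 8 of 15. Both shugoshins and 6 condensin genes made up the 8, whereas RAD21, the cohesin subunit cleaved at anaphase, was at 0.08 (adjusted p = 0.44). Of the 4 genes that set CDK1 phosphorylation at entry, CDC25A and PKMYT1 were called lower. The DNA replication list, which acts in S phase, had 26 of 32 called lower with a median of -1.48. None of these genes was called higher. They were chosen with results of these data known and describe the extent of the change, not its independent support.

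Markers moved alongside. The 5 β-like markers summed to 27710 and 32944 TPM in ePP-β against 3.62 to 6.97 TPM in the ePPs, and the 5 progenitor markers to 258 and 248 TPM against 428 to 534. Hormone and endocrine markers took 4.63% and 4.97% of the TPM in ePP-β. The fibroblast and mesenchyme list summed to 50.9 and 38.9 TPM in ePP-β against 45.3 to 70.7 TPM in the ePPs. PDGFRB, the 1 called gene of its 6 and a receptor of mesenchymal cells, was lower, with a difference of -1.15 (limma, adjusted p = 0.00550). COL1A1, COL1A2 and COL3A1 overlapped between the groups, at -0.46, -0.07 and -0.08. LUM went the other way at 0.48, with overlap, and THY1 was higher without overlap at means under 1 TPM. The 4-gene duct and epithelium list summed to 650 and 590 TPM in ePP-β against 454 to 524 TPM in the ePPs, without overlap. SPP1 of that list was called higher, with a difference of 1.45 (adjusted p = 0.00139), and CFTR and KRT19 were higher without overlap by 0.87 and 0.29 and were not called. The 4 endothelial markers summed to under 1 TPM in all 6 libraries. Of the definitive endoderm list CXCR4 was called higher, with means of 186 TPM in ePP-β and 8.67 TPM in the ePPs. SOX17, GSC and EOMES of that list stayed under 1 TPM. Of the pluripotent list SOX2 was called higher at 1.75 and DPPA4 lower at -1.23, with POU5F1 and NANOG under 1 TPM. The part of cell composition in the fall was not tested.

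The passages of ePPs were compared to ask whether long expansion altered the cells. Of the 43 genes, 1 was called higher in ePP-P21, namely CENPT, and none lower, where 1.07% of 15822 genes were called higher and 0.0569% lower. The median difference was -0.07, against 0.13 over all genes, and 9 genes had an unadjusted p under 0.05, where 23.0% of all genes did. ePP-P21 lay above ePP-P9 without overlap for 7 genes and below it for 14, against 41.3% and 13.1% of all genes. This comparison uses the same ePP libraries as the one with ePP-β.

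CENPT stood at 17.2 and 18.4 TPM at passage 9 against 59.6 and 59.9 TPM at passage 21. The passages were far apart next to the spread between replicates, with a log2 difference of 1.69 ± 0.10 (SE, adjusted p = 0.0284). The size held when any 1 library was left out (1.64 to 1.74), but the call did not: adjusted p was 0.102 without ePP-P21 replicate 1 and 0.131 without ePP-P21 replicate 2. It was also lost with median-centred values (adjusted p = 0.051), without a filter on low values (0.203) and with all 10 replicated libraries in the fit (0.638). CENPT lies at chr16:67828157-67847811 on the minus strand (GRCh38), and its exons share bases with those of NUTF2, THAP11 and TSNAXIP1 on the other strand. The use of strand in counting was not stated, so reads of these genes may not be separable. Exon bases are shared with another annotated gene by 15 of the 43, PLK1 (with ERN2) among them. TSNAXIP1 had 0.91 and 1.85 TPM at passage 9 against 6.79 and 7.85 TPM at passage 21 (1.83, adjusted p = 0.0439), so it moved in the same direction. NUTF2 and THAP11 stood at -0.01 and -0.05.

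**Figure D3:**
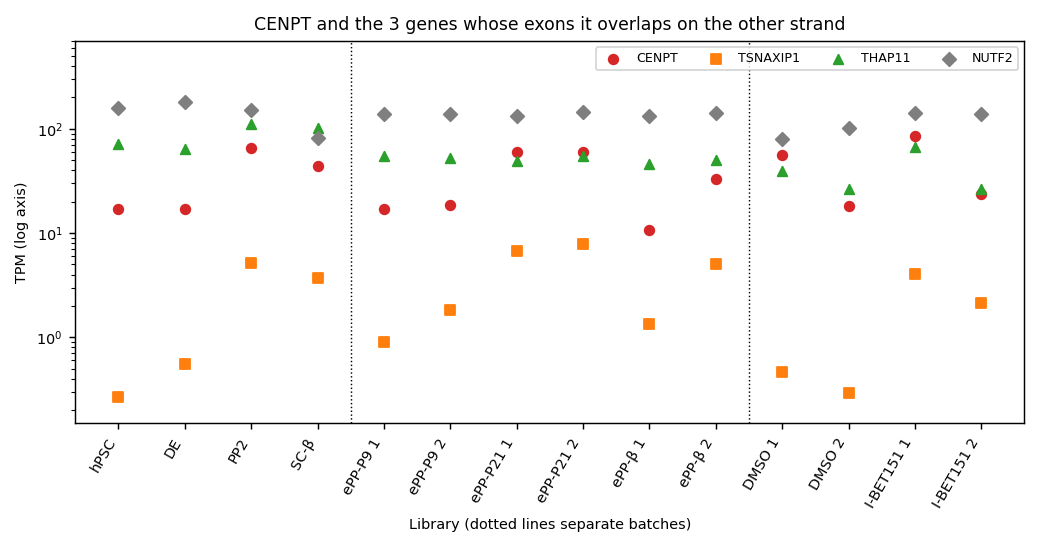
TPM (log axis) of CENPT and of the 3 genes whose exons it overlaps on the other strand, in each of the 14 libraries, with batches separated by dotted lines. CENPT and TSNAXIP1 are both higher in ePP-P21 than in ePP-P9 and both higher in ePP-β replicate 2 than in replicate 1, whereas NUTF2 stays between 131 and 145 TPM in all 6 of those libraries.

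The lowest differences belonged to PLK1, TTK and BIRC5. PLK1, at the values given above, fell short of a call at -0.68 ± 0.12 (SE, adjusted p = 0.0594). TTK, the checkpoint kinase MPS1, had 40.5 and 35.5 TPM at passage 9 against 23.8 and 25.7 TPM at passage 21 (-0.60 ± 0.12 SE, adjusted p = 0.0734). BIRC5 was at -0.56 ± 0.10 (SE, adjusted p = 0.0626) and CDC20 at -0.40 ± 0.08 (SE, adjusted p = 0.0734). For each of these 4 genes both ePP-P21 libraries lay below both ePP-P9 libraries, with differences under the fold threshold. At the other end after CENPT came KIF23, a motor of the central spindle, at 29.5 and 33.8 against 36.9 and 39.7 TPM (0.27 ± 0.12 SE, adjusted p = 0.241), and SPC24 at 6.15 and 6.28 against 6.79 and 7.73 TPM (0.19 ± 0.17 SE, adjusted p = 0.559), which turned to -0.012 with median-centred values. The remaining genes of the 16 followed library by library lay between -0.23 for BUB1 and 0.12 for CENPA, with adjusted p from 0.335 to 0.946, and median centring turned MKI67, CDK1, BUB3 and CENPA from positive to negative. None of the 116 genes in the 7 other lists was called.

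I-BET151 was compared with DMSO to ask what 7 days of the inhibitor did to progenitors. In the fit without a replicate block, no mitotic gene was called. None of the 43 had an adjusted p under 0.05 with limma in that fit, and none an unadjusted p under 0.05. Of 16687 genes tested there, 0.21% were called and 15.2% had an unadjusted p under 0.05. With replicate number as a block, which no label gives as a pairing, none of the 43 was called, against 13.7% of all genes. Their lowest adjusted p was then 0.0676 (limma), for CENPF. The median difference was 0.13, against 0.16 over all genes, and the 43 ranged from -0.35 for AURKA to 0.65 for CENPF. The median turned to -0.055 without DMSO replicate 2 and to -0.063 without I-BET151 replicate 1. Leaving out 1 library makes replicate numbers uneven between the groups, so the gap between replicates described below enters both values. I-BET151 lay above DMSO without overlap for 12 genes and below for 3, where 28.7% and 18.0% of all genes did so.

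**Figure D4:**
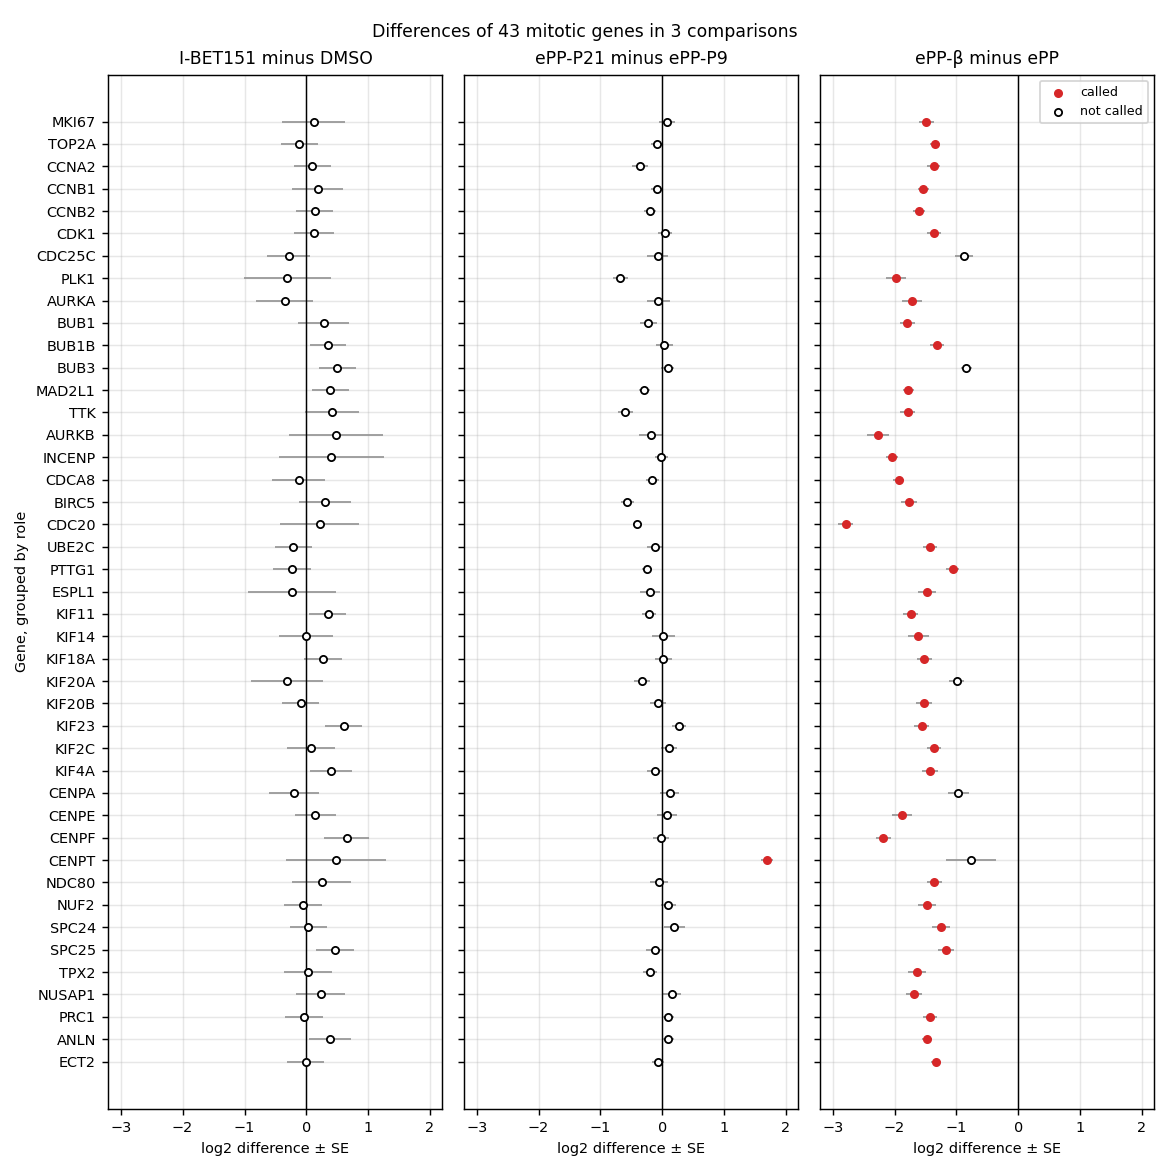
Log2 differences of the 43 genes with their SE in the 3 comparisons, on one scale, with called genes in red. Most of the right panel is red and left of -1, the middle panel has 1 red point (CENPT), and the left panel has none and the widest error bars.

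Replicates lay far apart in this batch. Of the 43 genes, 28 were lower in replicate 2 of DMSO and of I-BET151, 8 were higher in both, and 7 went opposite ways. Over all 16687 genes tested, replicate differences correlated at r = 0.68 between DMSO and I-BET151. A shared replicate gap was thus not limited to the 43, and no share over all genes is given for these counts. INCENP showed the highest ratio between replicates, at 40.1 and 10.9 TPM in DMSO and 53.6 and 14.6 TPM in I-BET151. AURKB was at 88.3 and 31.5 TPM in DMSO and 134 and 40.5 TPM in I-BET151. NDC80 went the other way, at 17.4 and 32.1 TPM and at 20.98 and 38.0 TPM. For 28 genes the mean gap between replicates was larger than the gap between treatments. Set side by side by replicate number, which no label gives as a pairing, 22 genes were higher in I-BET151 both times. Another 11 were lower both times and 10 went opposite ways. No share over all genes is given for these counts or for the count of replicate gaps above treatment gaps. Over all genes, 60.9% had a positive difference between the groups. Ribosomal protein genes took 20.3% and 27.9% of the TPM in the DMSO replicates and 16.8% and 27.8% in the I-BET151 replicates, and their part in the gap was not tested.

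**Figure D5:**
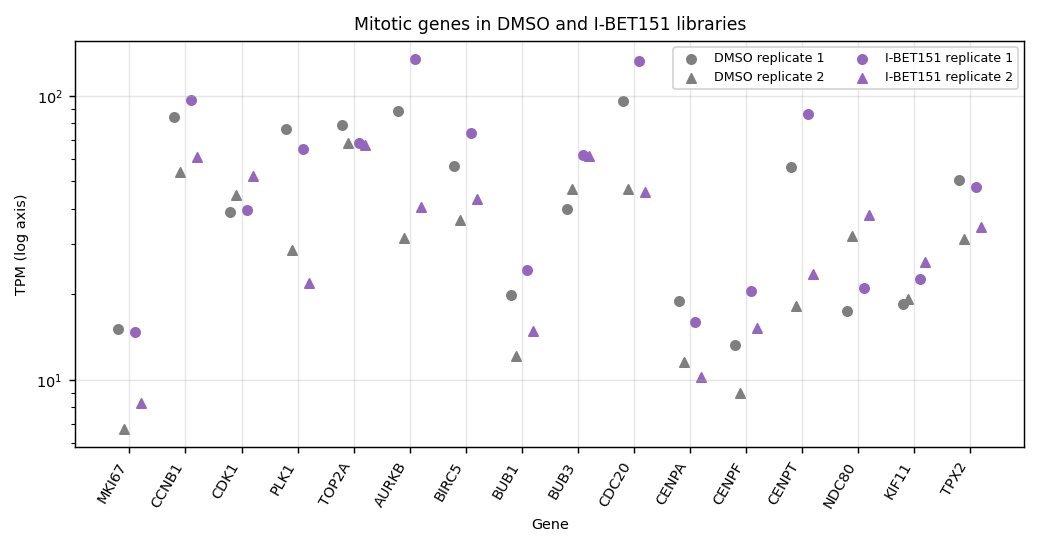
TPM (log axis) of 16 genes in the 2 DMSO and 2 I-BET151 libraries, circles for replicate 1 and triangles for replicate 2. For AURKB, PLK1, CDC20 and CENPT the circles of both groups sit above the triangles of both, so that the replicates are further apart than the treatments, whereas for BUB3 and CENPF the treatments separate.

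The kinases and cyclins gave no call between treatments, in the main fit or with replicate number as a block. The SE given here come from the fit without a block, so they include the gap between replicates. PLK1 was at 76.5 and 28.8 TPM in DMSO and 64.7 and 21.9 TPM in I-BET151 (-0.31 ± 0.71 SE, adjusted p = 0.881). CCNB1 was at 84.2 and 54.0 against 96.4 and 60.9 TPM, and CDK1 at 38.8 and 44.8 against 39.5 and 52.1 TPM (0.18 ± 0.41 and 0.12 ± 0.32 SE). AURKA, the kinase of the spindle poles, was at 37.4 and 22.4 against 30.6 and 16.5 TPM (-0.35 ± 0.46 SE, adjusted p = 0.77). The groups overlapped for all 4. MKI67 was at 15.1 and 6.73 against 14.7 and 8.29 TPM (0.12 ± 0.50 SE), and TOP2A at 78.8 and 68.3 against 68.4 and 67.1 TPM (-0.11 ± 0.30 SE). KIF20A, a motor of cytokinesis, was at 22.5 and 9.38 against 17.4 and 7.64 TPM (-0.31 ± 0.58 SE, adjusted p = 0.854). AURKB had a difference of 0.48 ± 0.76 (SE). Leaving out I-BET151 replicate 1 gave -0.37, but this sets I-BET151 replicate 2 against both DMSO replicates, so the replicate gap enters. Taken by replicate number, the AURKB differences were 0.60 and 0.36.

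CDC20 was at 95.6 and 46.8 TPM in DMSO and 133 and 45.8 TPM in I-BET151 (0.22 ± 0.64 SE). BIRC5 was at 56.6 and 36.6 against 73.9 and 43.2 TPM (0.31 ± 0.42 SE). TPX2 was at 50.4 and 31.2 against 47.8 and 34.5 TPM (0.03 ± 0.39 SE). These 3 overlapped as well, since replicate 1 of DMSO exceeded replicate 2 of I-BET151. The 5 checkpoint genes all had positive differences, from 0.28 to 0.50, where 60.9% of all genes were positive. BUB3 was at 39.9 and 46.9 TPM in DMSO and 61.9 and 61.5 TPM in I-BET151 (0.50 ± 0.30 SE, adjusted p = 0.491), without overlap. BUB1 was at 19.9 and 12.1 against 24.4 and 14.9 TPM (0.28 ± 0.42 SE, adjusted p = 0.806).

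The highest differences were those of CENPF and KIF23. CENPF was at 13.3 and 9.00 TPM in DMSO and 20.6 and 15.2 TPM in I-BET151 (0.65 ± 0.36 SE, adjusted p = 0.465). KIF23 was at 12.3 and 10.9 against 18.8 and 17.5 TPM (0.61 ± 0.30 SE, adjusted p = 0.42). Both I-BET151 libraries lay above both DMSO libraries for these genes, and neither passed the test. KIF11 was at 18.4 and 19.2 against 22.6 and 25.9 TPM (0.35 ± 0.30 SE), and CENPA at 18.9 and 11.6 against 15.97 and 10.2 TPM (-0.20 ± 0.41 SE). CENPT was at 56.3 and 18.2 against 86.2 and 23.5 TPM (0.48 ± 0.81 SE, adjusted p = 0.83), and its neighbour TSNAXIP1 at 0.46 and 0.29 against 4.05 and 2.15 TPM (1.54, adjusted p = 0.147). NDC80 had a difference of 0.25 ± 0.47 (SE).

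None of the 7 other lists held a call in this comparison when fitted without a replicate block. The DNA replication list had the highest median, 0.56, with 31 of 32 differences positive, 21 without overlap and 4 with an unadjusted p under 0.05, led by PCNA, the sliding clamp, at 1.28 (adjusted p = 0.156). The anaphase-promoting complex subunits were positive in 12 of 12, with a median of 0.35. The mitotic transcription list had a median of 0.29 and its highest value in E2F1, at 1.43 (adjusted p = 0.154).

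Markers of several cell types differed between the same libraries. The 5 progenitor markers summed to 300.3 and 221 TPM in DMSO and 833 and 495 TPM in I-BET151. The 6 fibroblast and mesenchyme markers summed to 185 and 80.3 TPM in DMSO and 76.4 and 33.7 TPM in I-BET151. Within that list LUM, which encodes the matrix proteoglycan lumican, was called lower, with a difference of -3.37 (limma, adjusted p = 0.0480). Its means were 15.2 TPM in DMSO and 0.573 TPM in I-BET151. COL3A1 was lower without overlap and was not called. COL1A1, COL1A2 and THY1 had lower means with overlapping groups. PDGFRB had a higher mean in I-BET151, also with overlap, at a difference of 0.17. The 4 duct and epithelium markers summed to 1221 and 726 TPM in DMSO and 783 and 324 TPM in I-BET151. KRT7 and CFTR of that list did not overlap between the groups, with means of 4.63 and 42.7 TPM in DMSO and 0.0159 and 12.6 TPM in I-BET151, and neither was called. The 5 β-like markers summed to 38.2 and 18.0 TPM in DMSO and 12.8 and 7.75 TPM in I-BET151, where CHGA was lower without overlap. Other endocrine markers summed to 3.76 and 3.80 TPM in DMSO and 9.41 and 0.210 TPM in I-BET151, where SST was lower without overlap, and endothelial markers to 3.08 and 2.56 TPM against 0.437 and 2.12 TPM. The part of these cells in the values of the 43 genes was not tested.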

How the data were processed

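The authors isolated total RNA, made NEBNext Ultra libraries, sequenced paired ends, aligned reads to GRCh38 with HISAT2 2.1.0 and quantified transcripts with StringTie. The deposited values are TPM, summed per gene identifier (908685 to 985497 per library). The annotation release and strand setting were not given in the sources used here. TPM keeps no depth, so no counting interval is given and precision rests on 2 libraries per replicated group. Symbols and positions came from GENCODE release 44 (60370 of 60624 identifiers matched).

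Genes at 1 TPM or more in at least 2 libraries of a fit were tested on log2(TPM + 1), which understates changes of low genes, with limma 3.58.1 in R 4.3.3 (eBayes with trend, two-sided, Benjamini-Hochberg over all genes tested), checked on simulated data. Each fit used only the groups compared. ePP was the mean of both passage means. A call needed adjusted p under 0.05 and a log2 difference beyond 1, the study's thresholds. The study's own tests used DESeq2 on counts, which were not used here. Full values are given for 16 genes of the main roles and for the 3 highest and 3 lowest differences of each comparison. For 5 genes with more than 1 RefSeq start the first listed was used. Members and lists were chosen with earlier results of these data known.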

Additional observations from a re-analysis of the deposited data

How the results depend on the processing

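The fall in ePP-β held under every alternative run, with 38 to 41 of the 43 genes called lower and 38 to 40 when 1 library was left out (median -1.54 to -1.47). The median moved to -1.64 with a pseudocount of 0.1, -1.65 with 0.01, -1.62 with median centring and -1.64 with quantile normalization. CENPT turned positive without ePP-β replicate 1 (leave-one-out range -1.54 to 0.0080) and against ePP-P9 alone (0.079). For ePP-P21 against ePP-P9 the count called higher was 0 without a filter, with median centring, with all 10 libraries and without either ePP-P21 library (range 0 to 1), and the median moved to 0.017 without ePP-P21 replicate 1 (leave-one-out range -0.16 to 0.017), -0.28 with median centring and -0.20 with quantile normalization. Under those 2 settings, in that order, MKI67 turned to -0.13 and -0.13, CDK1 to -0.16 and -0.063, CENPA to -0.083 and -0.086 and SPC24 to -0.012 and -0.028, and BUB3 turned to -0.12 under median centring. Leaving out 1 library gave ranges across 0 for CDK1 (-0.095 to 0.18), AURKB (-0.46 to 0.080), BUB3 (-0.0069 to 0.18), CENPF (-0.14 to 0.098) and NDC80 (-0.22 to 0.11).

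For I-BET151 against DMSO no alternative gave a call among the 43 genes. Leave-one-out ranges of the difference crossed 0 for the median (-0.063 to 0.35), MKI67 (-0.41 to 0.64), CCNB1 (-0.15 to 0.51), CDK1 (-0.078 to 0.31), PLK1 (-1.07 to 0.45), AURKB (-0.37 to 1.33), BIRC5 (-0.075 to 0.69), BUB1 (-0.059 to 0.62), CDC20 (-0.54 to 0.98), CENPA (-0.53 to 0.13), CENPT (-0.43 to 1.40), NDC80 (-0.18 to 0.67), TPX2 (-0.31 to 0.37), AURKA (-0.78 to 0.077) and KIF20A (-0.90 to 0.28). TPX2 also turned to -0.047 with median centring and -0.082 with quantile normalization. A lone library left in a group was assumed to vary like the others. Leaving out 1 library also makes replicate numbers uneven between DMSO and I-BET151. The gap between replicates therefore enters these ranges, and they do not measure the treatment difference alone. For PP2 against DE the median turned to -0.27 with median centring, and for SC-β against PP2 it moved to -2.18 with median centring and -2.75 with a pseudocount of 0.1. The causes were not tested.

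With replicate number as a block, 38 genes were called lower in ePP-β, 1 higher in ePP-P21 and 0 for I-BET151. Over all genes the I-BET151 calls went from 35 to 2294 with that block (13.7% of those tested), and the ePP-P21 calls from 178 to 66. In the 7 other lists the I-BET151 calls went from 0 to 6, all higher, namely E2F1 (1.43, adjusted p = 0.0156), PCNA (1.28, 0.0126), POLE (1.12, 0.0276), PKMYT1 (1.08, 0.0179), RRM2 (1.07, 0.0172) and MCM7 (1.03, 0.0203). Numbers were not taken to pair libraries, since no label says so and each group has 2. Replicate differences correlated across genes at r = 0.68 between DMSO and I-BET151 and at -0.01 between the passages.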
